A study of Arabidopsis thaliana with 18 samples.

Results

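Gene expression was compared between whole root tips of the tcx2 mutant and of wild type (WT, Col-0) of Arabidopsis thaliana. Both genotypes were 5 days old, and both were grown on 1X MS agar with 1% sucrose at 22 C in 16 h of light and 8 h of dark, with no other treatment. There were 6 RNA sequencing libraries, 3 of WT and 3 of tcx2. The sources differ on the length of root cut for each, which is about 1 mm in the sample labels and longer in the methods. The study's methods describe the mutant line of the root tips as a knockout with a T-DNA insertion in TCX2 (AT4G14770), and a single allele was measured. The authors pooled the 3 libraries of a genotype into 1 FPKM value per gene (sequenced fragments, scaled by the length of the transcript and the depth of the library) and gave the lower and upper bound of an interval around it. The spread between replicates therefore cannot be given, no p-value can be computed, and each comparison below is a description of 2 pooled values with their intervals. Of 33201 rows in the table, 17465 (52.6%) reached an FPKM of 1 in WT, in tcx2 or in both and were compared. Read counts and library totals are not in the table, so the depth is unknown.

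TCX2 is a CXC-domain protein and the plant counterpart of LIN54, the DNA-binding subunit of the animal DREAM complex. That complex joins E2F, RBR1 and MYB3R proteins and holds cell cycle genes at the right level through the division cycle. CXC domains are known to bind the CHR element, a short DNA motif of many cell cycle promoters. The root tip holds the stem cell niche, the dividing cells above it, the root cap around it, and, at its upper end, young epidermis, endodermis and vascular cells that begin to take up and move nutrients.

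TCX2 itself was measured first. Its level was 1.29 FPKM (0.715 to 1.82) in WT and 0.303 (0.0550 to 0.550) in tcx2, and these intervals did not overlap. The difference of log2(FPKM + 1), tcx2 minus WT, was -0.81, and the mutant held 23.5% of the WT FPKM. The gene lies on chromosome 4, from 8481370 to 8484825 (TAIR10, the positions of the authors' table). Both values were low for this tissue, where the median WT FPKM over all compared genes was 12.1. The table does not say which part of the transcript gave the reads left in the mutant.

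The regulatory sequence in front of TCX2 and of 5 other genes that the comparison turns on is shown here, so that the CHR elements in them can be seen. Each sequence is the 250 bases before the annotated gene start, read 5' to 3' on the gene's strand from RefSeq TAIR10.1, and capitals mark a CHR element (TTTGAA or TTCGAA on either strand, so that TTCAAA is the same element on the opposite strand). They are TCX2 (chr4:8484977-8485226, minus strand), the iron transporter IRT1 (chr4:10707094-10707343, plus), the iron reductase FRO2 (chr1:208745-208994, plus), the nitrate transporter NRT1.5 (chr1:11719989-11720238, minus), the ammonium transporter AMT1;2 (chr1:24062805-24063054, minus) and AT1G12760 (chr1:4348248-4348497, plus), the gene with separate intervals that was highest in tcx2 against WT.
TCX2: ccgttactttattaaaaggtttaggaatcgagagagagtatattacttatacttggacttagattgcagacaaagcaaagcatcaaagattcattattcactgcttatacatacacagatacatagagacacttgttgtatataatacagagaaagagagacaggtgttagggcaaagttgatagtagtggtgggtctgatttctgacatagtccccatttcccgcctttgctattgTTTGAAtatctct
IRT1: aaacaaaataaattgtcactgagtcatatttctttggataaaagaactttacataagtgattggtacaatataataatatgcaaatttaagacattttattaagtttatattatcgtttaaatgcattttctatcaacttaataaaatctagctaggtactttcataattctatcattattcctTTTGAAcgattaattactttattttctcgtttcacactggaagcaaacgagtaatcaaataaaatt
FRO2: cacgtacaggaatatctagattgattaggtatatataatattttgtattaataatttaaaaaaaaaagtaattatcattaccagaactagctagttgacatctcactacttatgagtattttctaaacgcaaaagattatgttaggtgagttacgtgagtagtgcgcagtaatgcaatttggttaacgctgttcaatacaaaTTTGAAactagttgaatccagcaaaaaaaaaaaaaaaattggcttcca
NRT1.5: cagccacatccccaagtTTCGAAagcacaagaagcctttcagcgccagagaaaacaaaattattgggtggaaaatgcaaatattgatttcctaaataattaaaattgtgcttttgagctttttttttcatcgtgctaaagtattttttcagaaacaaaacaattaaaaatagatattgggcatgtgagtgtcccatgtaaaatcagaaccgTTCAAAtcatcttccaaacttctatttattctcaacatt
AMT1;2: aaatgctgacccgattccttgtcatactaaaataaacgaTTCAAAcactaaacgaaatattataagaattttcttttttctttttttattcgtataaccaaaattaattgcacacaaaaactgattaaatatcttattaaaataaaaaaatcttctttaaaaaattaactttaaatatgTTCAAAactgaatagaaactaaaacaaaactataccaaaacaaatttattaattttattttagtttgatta
AT1G12760: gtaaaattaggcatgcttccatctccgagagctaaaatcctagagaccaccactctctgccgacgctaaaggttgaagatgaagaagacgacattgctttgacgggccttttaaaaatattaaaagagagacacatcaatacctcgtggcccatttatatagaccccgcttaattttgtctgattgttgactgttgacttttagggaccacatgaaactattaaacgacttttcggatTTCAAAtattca
NRT1.5 and AMT1;2 each held 2 CHR elements in these 250 bases and the others 1. The TCX2 promoter also held 1 E2F core and 1 MSA core, the motifs bound by E2F and MYB3R proteins. An MSA core was present in the NRT1.5 promoter as well. In a window that also takes in the first 50 bases of the gene, 48.9% of the promoters of all compared genes held a CHR element.

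Most genes had nearly the same level in both genotypes. The median difference over the 17465 genes was 0.0017, the middle 50% lay between -0.12 and 0.11, and 95% lay between -0.50 and 0.38. Intervals that did not overlap were found for 63 genes (0.361%), and a gene is called here when it met that criterion. The called genes were unevenly split, with 56 lower in tcx2 (0.321% of the genes compared) and 7 higher (0.0401%). A size criterion that disregards the intervals gave the same direction of imbalance: 319 genes were at least 1.5-fold lower on the log2(FPKM + 1) scale (1.83%) and 138 at least 1.5-fold higher (0.79%), together 2.62%. All 63 called genes also passed 1.5-fold. Genes are named below by the size of their difference within each group, and further members of a pathway were added after their values were seen.

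Which genes could be called depended on their level. The distance from the WT value to a bound of its interval was, at the median, 45.0% of the FPKM for the 4952 genes with a mean FPKM under 5, against 30.5% for the 6071 genes from 5 to 20, 26.5% for the 4810 genes from 20 to 100 and 25.2% for the 1632 genes over 100. Intervals of these widths separate only beyond about 2.63-fold, 1.88-fold, 1.72-fold and 1.67-fold. In the same order of level, 31, 16, 9 and 0 genes were called lower and 1, 3, 3 and 0 higher. The median difference ran from -0.058 in the lowest class to 0.046 in the highest. A called lower gene had a median WT FPKM of 6.51, with 23 of the 56 under 5 and 9 over 20, so that most of these genes were expressed below the median of the tissue. A gene that reached an FPKM of 1 only in WT could only be lower. Among the called lower genes this held for TCX2, AT5G33355, AT1G74460, AT2G22510, MLP328, AT2G01422, AT5G12420, ABCG6 and AT4G03540. It also held for AT1G26250, HCD1, CYP82C4, AT3G50400, UMAMIT31, AT4G00910, CYP86B1, CYP86A8 and RLP50. The reverse held for genes that reached an FPKM of 1 only in tcx2, such as AT5G35935. This limit applies to every list count below.

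**Figure D1:**
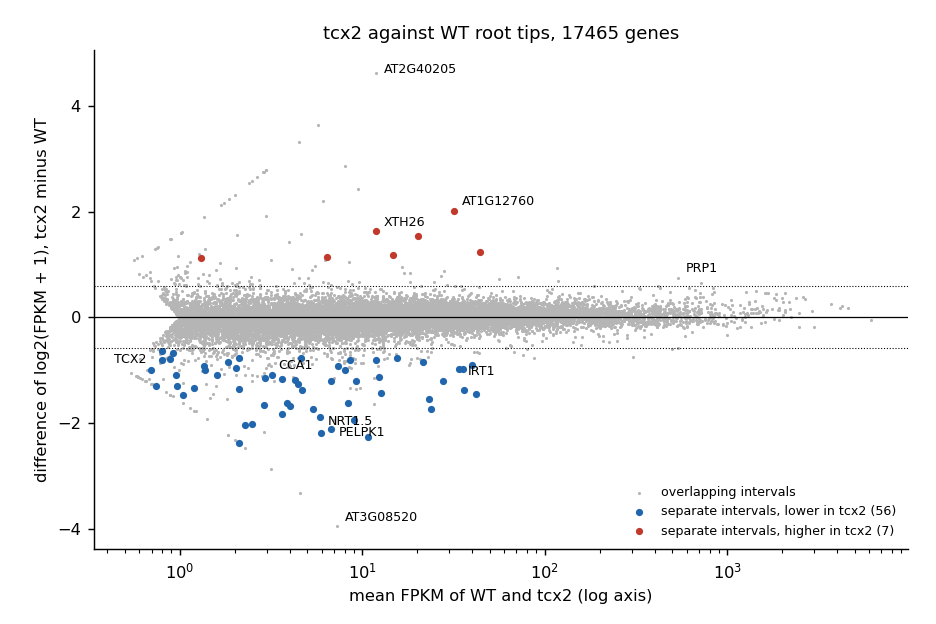
Difference of log2(FPKM + 1), tcx2 minus WT, against the mean FPKM of the pooled values (log axis) for 17465 genes. Each point is 1 gene, dotted lines mark 1.5-fold, blue points are the 56 called genes that were lower in tcx2 and red points the 7 that were higher, and no called gene has a mean FPKM over 100.

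The 7 genes called higher in tcx2 were led by AT1G12760, a RING finger protein of the ubiquitin ligase type. Its level was 11.98 FPKM (8.11 to 15.9) in WT and 51.6 (36.6 to 68.3) in tcx2, a 4.31-fold difference. XTH26, a xyloglucan endotransglucosylase/hydrolase that remodels the cell wall and is known from root hairs, was at 5.297 FPKM (3.17 to 7.32) in WT and 18.5 (12.6 to 24.1) in tcx2. The intervals of both genes stood well apart. AT2G23400, annotated as an undecaprenyl pyrophosphate synthetase family protein, which makes long polyisoprenoid chains, was at 9.79 in WT and 30.4 in tcx2.

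A pair of the 7 belongs to protein folding in the endoplasmic reticulum. ERDJ3A (AT3G08970), a DnaJ co-chaperone of that compartment, was at 8.65 FPKM (6.41 to 10.9) in WT and 20.9 (15.996 to 25.8) in tcx2. TIN1, named for its induction by tunicamycin, a drug that blocks protein glycosylation, was at 3.63 FPKM (2.07 to 5.11) in WT and 9.25 (5.698 to 12.1) in tcx2. The other two have no annotated function: AT2G41650 was at 25.8 in WT and 62.1 in tcx2, with the tcx2 value above its own upper bound of 59.2, and the pseudogene AT5G35935 was at 0.452 in WT and 2.16 in tcx2.

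Several of the 56 genes called lower encode uptake and transport proteins, grouped here after their values were seen. NRT1.5, which loads nitrate into the xylem, was at 9.85 FPKM (7.04 to 12.7) in WT and 1.91 (1.2001 to 2.67) in tcx2, a 5.14-fold lower level in the mutant. AMT1;2, an ammonium transporter of inner root layers, was at 13.3 FPKM (9.59 to 16.9) in WT and 5.19 (3.47 to 6.88) in tcx2. IRT1, the main iron importer of the root epidermis, was at 45.3 FPKM (33.5 to 57.1) in WT and 22.6 (13.7 to 31.1) in tcx2, and FRO2, the ferric reductase that supplies it with ferrous iron, was at 15.3 FPKM (11.1 to 19.4) in WT and 8.33 (5.96 to 10.7) in tcx2. In all 4 the tcx2 upper bound lay under the WT lower bound, by the smallest margin for FRO2, whose bounds were 10.7 and 11.1. Lower levels were also found for UMAMIT31, an amino acid transporter family member (2.15 in WT and 0.580 in tcx2), and for AT4G00910 of the malate transporter family (2.09 in WT and 0.624 in tcx2). UMAMIT31 and AT4G00910 reached an FPKM of 1 only in WT, so their direction was set by the filter.

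Other called lower genes, again grouped after their values were seen, are annotated to lipid polyesters, the waxy wall layers cutin and suberin, or to related lipids. GPAT4, a glycerol-3-phosphate acyltransferase of cutin synthesis, was at 7.17 FPKM (4.77 to 9.29) in WT and 2.14 (1.29 to 3.03) in tcx2. ABCG6, an exporter needed for suberin, was at 2.14 FPKM (1.19 to 2.86) in WT and 0.247 (0.0477 to 0.429) in tcx2. The cytochrome P450 CYP86B1, which makes the very long hydroxy acids of suberin, was at 1.39 FPKM (0.827 to 1.93) in WT and 0.385 (0.110 to 0.661) in tcx2. CYP86A8, a fatty acid hydroxylase, was lower as well (1.35 in WT and 0.480 in tcx2), as was AT5G12420, of the wax ester synthase family (3.47 in WT and 0.747 in tcx2), and HCD1, annotated as a 3-hydroxyacyl-CoA dehydratase (2.54 in WT and 0.651 in tcx2). A pair of GDSL lipases, a family that includes cutin and suberin polymerases, was called lower with tcx2 intervals that reached 0, while 21 of the 35 members of that family were higher (median 0.049): AT1G74460 was at 4.26 FPKM (2.53 to 5.96) in WT and 0.282 (0 to 0.542) in tcx2 and AT3G50400 at 1.26 in WT and 0.125 in tcx2. Of the genes named in this group, only GPAT4 reached an FPKM of 1 in tcx2. The direction of all the others was set by the filter.

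Secreted wall proteins were found among the called lower genes as well. PELPK1 and PELPK2, neighbouring genes for proline-rich repeat proteins, were at 11.6 FPKM (8.02 to 14.9) in WT and 1.89 (1.09 to 2.72) in tcx2 and at 6.205 FPKM (2.33 to 8.48) in WT and 1.03 (0 to 1.91) in tcx2. Their sequences are related, so that reads could be split between them in ways the table does not show. The glycine-rich proteins AT4G33610 (18.5 in WT and 3.03 in tcx2) and AT1G55990 (14.9 in WT and 3.14 in tcx2) and the wall galactosidase BGAL8 (27.8 in WT and 15.04 in tcx2) were lower as well. For the hydroxyproline-rich proteins AT2G22510 and AT1G26250, the WT value lay above its own upper bound, and their tcx2 intervals reached 0. Both genes reached an FPKM of 1 only in WT, so their direction was set by the filter.

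Of the remaining called lower genes, several belong to families linked with defence and specialised metabolism. DOX1, an alpha-dioxygenase of fatty acids, was at 13.2 FPKM (9.83 to 16.5) in WT and 3.62 (2.497 to 4.73) in tcx2, and the class III peroxidase AT2G38380, a secreted haem enzyme, was at 35.2 in WT and 11.4 in tcx2. The defensin-like gene AT3G59930 was at 61.7 in WT and 21.8 in tcx2, and a second one, AT5G33355, was at 4.23 in WT and listed at 0 in tcx2. The mannose-binding lectin AT5G35940 was at 36.95 FPKM (28.5 to 45.3) in WT and 10.4 (7.64 to 13.2) in tcx2. Among genes of the major latex protein and Bet v 1-like fold, which bind small lipophilic molecules, AT4G23670 was at 52.9 in WT and 19.8 in tcx2, AT3G26460 at 8.85 in WT and 1.96 in tcx2 and MLP328 at 4.92 in WT and 0.864 in tcx2. Methyltransferases were represented by AT5G37990 (6.66 in WT and 1.401 in tcx2), AT5G38020 (17.3 in WT and 7.32 in tcx2) and AT4G35160 (11.1 in WT and 5.08 in tcx2). In this group AT5G33355 and MLP328 reached an FPKM of 1 only in WT, so their direction was set by the filter.

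A few called genes stood alone in their function. HEI10, a RING protein of meiotic crossovers, was at 10.4 FPKM (4.94 to 15.9) in WT and 1.51 (0 to 3.24) in tcx2, and it overlaps MRD1, which was at 4.02 in WT and listed at 0 in tcx2. Strand-specific counting is not stated, so the reads of this overlapping pair cannot be told apart. ANNAT7, an annexin that binds calcium and membranes, was at 6.37 in WT and 1.38 in tcx2, the calmodulin-like touch gene TCH3 at 52.1 in WT and 27.3 in tcx2, and the cytosolic chaperone HSP70 (AT3G12580) at 9.88 in WT and 4.78 in tcx2. DR4, named for its repression by drought, was at 39.3 in WT and 16.4 in tcx2. Of these 5, HEI10 had the widest intervals for its level and its tcx2 interval began at 0.

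**Figure D2:**
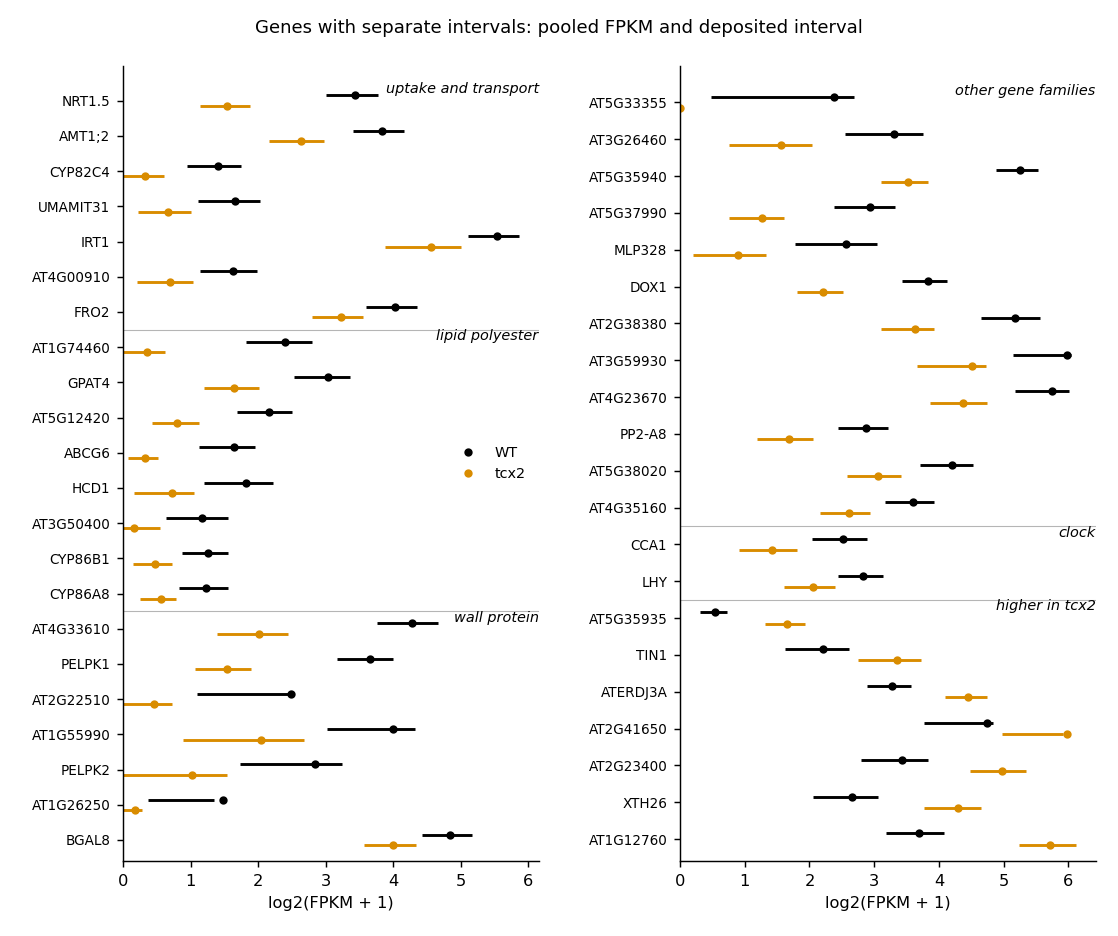
Pooled log2(FPKM + 1) (points) with the deposited interval (bars) for WT (black) and tcx2 (orange), for the called genes of the groups described here. The bars of a gene do not overlap in any row. The AT1G26250 WT point lies outside its own bar, and AT5G33355 is listed at 0 in tcx2.

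The iron genes were then followed as a pathway, since IRT1 and FRO2 work with many partners. Of 47 iron and metal genes that passed the filter, 28 were lower and 19 higher in tcx2, with a median difference of -0.082. 3 of them were called, all lower, where 0.321% of all genes were called lower. 7 were at least 1.5-fold lower and 1 was higher, against 1.83% and 0.79% of all genes. Besides IRT1 and FRO2 the called gene was CYP82C4, which hydroxylates the coumarin fraxetin for iron acquisition, at 1.66 FPKM (0.921 to 2.37) in WT and 0.248 (0 to 0.526) in tcx2. CYP82C4 reached an FPKM of 1 only in WT, so its direction was set by the filter. The nicotianamine synthases, which make the metal chelator that carries iron inside the plant, were lower with overlapping intervals: NAS1 was at 3.84 FPKM (1.73 to 5.29) in WT and 1.11 (0.288 to 1.92) in tcx2, NAS4 at 5.81 in WT and 2.65 in tcx2 and NAS2 at 12.1 in WT and 6.19 in tcx2. FRD3, which releases citrate into the xylem to keep iron soluble, was at 6.22 in WT and 3.66 in tcx2.

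The regulators of the iron response showed smaller differences than IRT1 and FRO2. FIT (listed as FRU), the bHLH factor required for IRT1 and FRO2 expression, was at 111 FPKM (77.4 to 144) in WT and 97.2 (69.03 to 119.8) in tcx2. Its partners were at 1.16 in WT and 1.05 in tcx2 for bHLH38, at 4.61 in WT and 3.86 in tcx2 for bHLH39 and at 1.99 in WT and 2.49 in tcx2 for bHLH101. PYE, a second bHLH branch of the response, was at 6.07 in WT and 7.04 in tcx2 and the iron-sensing ubiquitin ligase BTS at 21.1 in WT and 24.7 in tcx2. All of these intervals overlapped. The only iron and metal gene at least 1.5-fold higher was IRT2, the closest relative and direct neighbour of IRT1 at 2609 bases, which was at 41.8 FPKM (28.1 to 49.99) in WT and 70.01 (42.5 to 82.8) in tcx2, a difference of 0.73 where IRT1 gave -0.97. The intervals of IRT2 overlapped. The ferritins FER1 (51.4 in WT and 55.5 in tcx2) and FER3 (88.4 in WT and 91.5 in tcx2), which store iron, and the proton pump AHA2 (listed as HA2, 877 in WT and 930.2 in tcx2), which acidifies the root surface, differed little.

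Nitrogen genes were less uniform. Of 26 genes for nitrate and ammonium uptake and assimilation, 18 were lower, 2 were called (NRT1.5 and AMT1;2) and 3 were at least 1.5-fold lower, with a median difference of -0.13. Over all genes 0.321% were called lower and 1.83% were at least 1.5-fold lower. The third was the glutamine synthetase gene GLN1;2 (listed as GSR2), at 643 FPKM (469.7 to 816) in WT and 427 (304 to 551) in tcx2. The high-affinity nitrate transporter NRT2.1 (listed as NRT2:1) was at 5.62 in WT and 3.49 in tcx2 and the dual-affinity transporter and nitrate sensor NRT1.1 at 106 in WT and 92.6 in tcx2. The ammonium importers of the outer root differed less than AMT1;2: AMT1;1 (AT4G13510) was at 302 in WT and 319 in tcx2 and AMT1;3 (AT3G24300) at 65.4 in WT and 65.7 in tcx2. No gene of this list was at least 1.5-fold higher.

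Genes of the circadian clock differed in both directions. In plants, CCA1 and LHY are MYB factors made around dawn that repress evening genes such as TOC1, and evening proteins repress CCA1 and LHY in turn. CCA1 was at 4.75 FPKM (3.09 to 6.41) in WT and 1.69 (0.873 to 2.51) in tcx2 and LHY at 6.12 FPKM (4.42 to 7.82) in WT and 3.16 (2.05 to 4.27) in tcx2, and both were called lower (0.321% of all genes). Of 28 clock genes compared, 14 were lower and 14 higher, 6 were at least 1.5-fold lower (1.83% of all genes) and none at least 1.5-fold higher, and the median difference was -0.0081. Among the clock genes with an FPKM of at least 5 the median was 0.15. 8 morning-phased genes were grouped after their values were seen, so that their shared direction (lower in tcx2, summed FPKM 44.9 in WT and 28.2 in tcx2) was set by the choice. They include the pseudo-response regulator PRR9 (2.09 in WT and 0.944 in tcx2), the activator RVE8 (4.84 in WT and 3.15 in tcx2) and the LNK coactivators, of which LNK4 (AT5G06980) was at 3.46 in WT and 1.09 in tcx2, LNK3 (AT3G12320) at 1.596 in WT and 0.691 in tcx2, LNK2 (AT3G54500) at 8.72 in WT and 6.59 in tcx2 and LNK1 (AT5G64170) at 13.4 in WT and 10.9 in tcx2.

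8 evening-phased genes were grouped in the same way, and their shared direction (higher in tcx2, summed FPKM 208 in WT and 240.2 in tcx2) was likewise set by the choice. Their intervals overlapped. GI was at 18.2 in WT and 20.3 in tcx2, TOC1 at 17.1 in WT and 19.3 in tcx2, ELF3 at 12.7 in WT and 15.7 in tcx2 and ELF4 at 102 in WT and 119 in tcx2. LUX (listed as PCL1), which joins ELF3 and ELF4 in the evening complex, was at 40.8 in WT and 45.6 in tcx2. FKF1, a light receptor of the afternoon, was at 1.58 in WT and 2.85 in tcx2. Outside the group, GRP7, an RNA-binding protein under clock control, was at 710.1 in WT and 988 in tcx2. CDF3, a DOF factor of the day, was lower (4.06 in WT and 1.96 in tcx2) and PRR7, a repressor of CCA1 and LHY, was higher (2.81 in WT and 4.55 in tcx2). GRP7, CDF3 and PRR7 were left out of these groups. The time of day at which WT and tcx2 roots were collected is not given in the sources used here, so its part in these values was not tested.

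**Figure D3:**
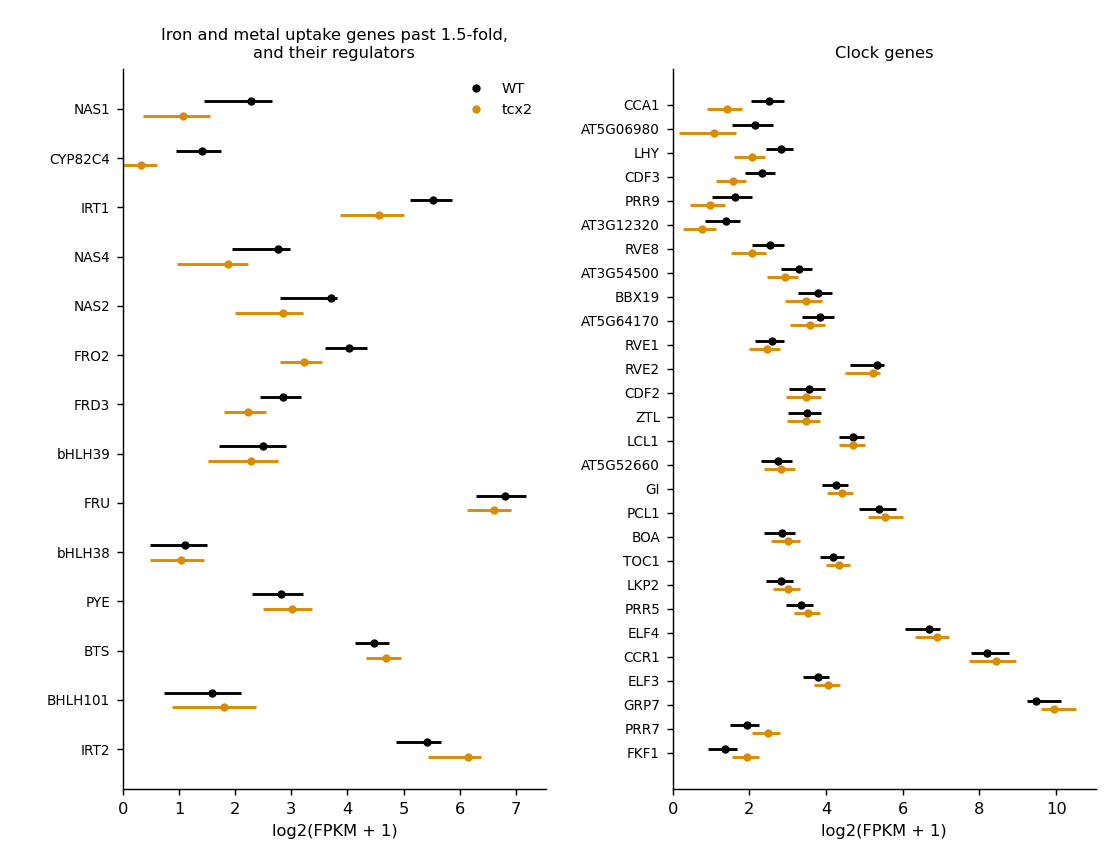
Pooled log2(FPKM + 1) (points) with the deposited interval (bars) for WT (black) and tcx2 (orange). The left panel shows iron and metal genes past 1.5-fold with their regulators, where 7 genes are lower in tcx2 and IRT2 is higher. The right panel shows 28 clock genes in order of the difference, from CCA1 (lowest in tcx2 against WT) to FKF1 (highest).

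Root hair genes were higher in tcx2 in most members, by small and similar amounts. Root hairs are tubular outgrowths of epidermal cells, and the list holds their transcription factors, wall proteins, wall-loosening enzymes and signalling kinases. All 43 genes of the list passed the filter, 40 were higher in tcx2 and 3 lower, with a median difference of 0.29. The summed FPKM was 6621 in WT and 8610 in tcx2. XTH26 was the only called member, against a background of 0.0401% of all genes called higher. 3 members were at least 1.5-fold higher, against 0.79% of all genes. The wall proteins were at 1193 FPKM (577 to 1043) in WT and 1696 (752 to 1399.7) in tcx2 for PRP3, at 400.3 in WT and 672 in tcx2 for PRP1 and at 257 in WT and 337 in tcx2 for LRX1. The PRP1, PRP3 and LRX1 values lay above their own upper bounds in both genotypes. Among wall-loosening enzymes, EXPA7 was at 432 FPKM (290.2 to 511) in WT and 540.1 (347 to 618) in tcx2, XTH14 at 533 in WT and 683 in tcx2 and XTH12 at 148 in WT and 224 in tcx2. XTH12 and XTH13 are close copies, and their reads may be shared.

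The regulators of root hair growth differed less than the wall genes. RHD6, which sets hair cell identity, was at 23.4 in WT and 24.9 in tcx2. RSL4, the bHLH factor that drives hair elongation, was at 68.7 FPKM (45.8 to 85.998) in WT and 81.8 (55.1 to 103) in tcx2, while its relative RSL2 was at 53.2 in WT and 44.8 in tcx2 and was the member furthest below WT. LRL1, a further bHLH factor of hair growth, was at 70.1 in WT and 70.1 in tcx2. RHD2 (RBOHC), the NADPH oxidase of the growing hair tip, was at 105 in WT and 121 in tcx2. All 8 marker genes of hair cells were higher (summed FPKM 2456 in WT and 3270 in tcx2). The markers of non-hair epidermal cells, GL2 (26.8 in WT and 27.6 in tcx2) and WER (MYB66, 21.3 in WT and 19.8 in tcx2), were split in direction. In bulk tissue, more cells of a type and more RNA per cell cannot be told apart.

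**Figure D4:**
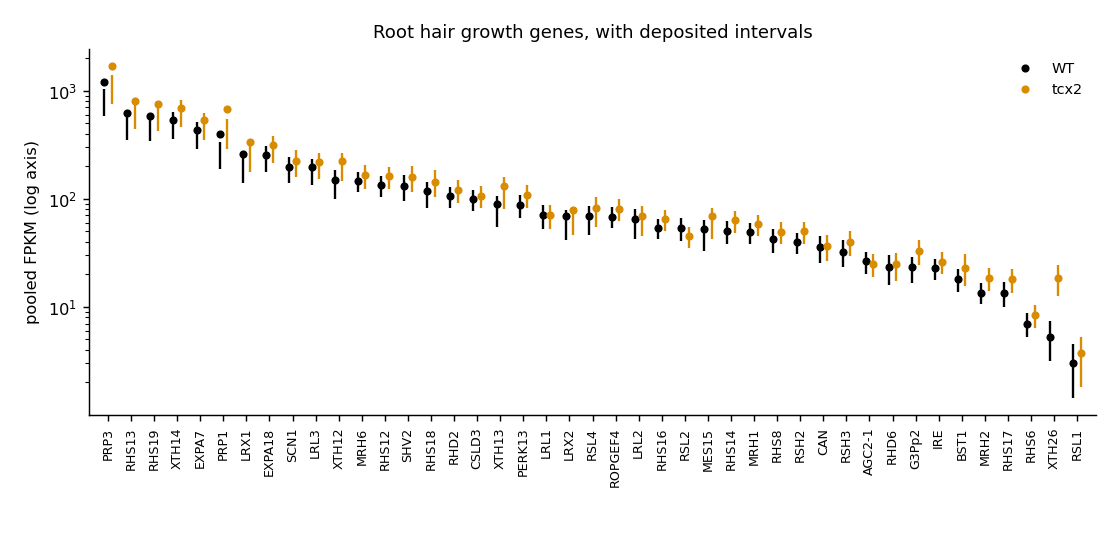
Pooled FPKM (points, log axis) with the deposited interval (bars) of the 43 root hair growth genes in WT (black) and tcx2 (orange), in order of WT level. The tcx2 point lies above the WT point for 40 genes, and the bars overlap for every gene except XTH26.

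Families of wall and secreted proteins went in both directions. Expansins, which loosen the wall, were higher in 9 and lower in 12 of 21 (median -0.082), xyloglucan hydrolases were split 12 to 12, glycine-rich proteins were higher in 16 and lower in 18, and laccases were higher in 4 and lower in 7. In the CAP family of secreted cysteine-rich proteins, 7 of 11 compared genes were higher (median 0.33), led by AT5G57625 at 519 in WT and 679 in tcx2, AT4G31470 at 333 in WT and 447 in tcx2 and AT1G50060 at 151 in WT and 190.0 in tcx2. All 7 of its members with an FPKM of at least 5 were higher. Of 47 arabinogalactan proteins, glycoproteins of the cell surface, 34 were higher (median 0.11). FLA6 was at least 1.5-fold higher, at 79.7 in WT and 153 in tcx2. AGP5 was at least 1.5-fold lower, at 1.503 in WT and 0.110 in tcx2. Over all genes 0.79% were at least 1.5-fold higher and 1.83% lower. AGP5 reached an FPKM of 1 only in WT, so its direction was set by the filter. The FPKM of 23 of these 47 lay outside its own interval in at least 1 genotype, so that their intervals say little.

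The unfolded protein response, which raises chaperones when proteins misfold in the endoplasmic reticulum, had 14 of 15 genes higher, with a median difference of 0.14. ERDJ3A was the only called gene, where 0.0401% of all genes were called higher. BIP3, the stress-induced copy of the chaperone BiP, was at 0.558 FPKM (0.188 to 0.953) in WT and 1.53 (0.762 to 2.35) in tcx2. BIP3 reached an FPKM of 1 only in tcx2, so its direction was set by the filter. The constitutive copies BIP1 (292 in WT and 322 in tcx2) and BIP2 (410.5 in WT and 445 in tcx2), the lectin chaperone CNX1 (296 in WT and 346 in tcx2) and the transcription factor BZIP60 (41.7 in WT and 45.4 in tcx2) differed by smaller amounts, with overlapping intervals.

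Aquaporins, the water channels of the plasma membrane and vacuole, are among the most abundant transcripts of this tissue. Of 26 compared, 19 were higher in tcx2 with a median of 0.12. The vacuolar channels GAMMA-TIP and TIP2 were at 4342 in WT and 4879 in tcx2 and at 3883 in WT and 4397 in tcx2, and the plasma membrane channel PIP1B was at 2399 in WT and 2537 in tcx2. The excess depended on scaling, since 16 were higher when both genotypes were given the same FPKM sum and 13 after quantile normalization, with medians of 0.072 and 0.028. Casparian strip genes, which build the diffusion barrier of the endodermis, were higher in 12 of 14 with a median of 0.063. With equal FPKM sums this was 8 of 14. CASP1 was at 692 in WT and 731 in tcx2 and the transcription factor MYB36 at 61.1 in WT and 62.3 in tcx2.

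Suberin genes were lower in most of the members compared. Of 23 listed, 11 passed the filter and 12 were below it. 9 of the 11 were lower and 3 were called lower (ABCG6, CYP86B1 and CYP86A8), against 0.321% of all genes, with a median of -0.34. KCS2, an elongase of the long-chain acids of suberin, was at 4.46 in WT and 1.89 in tcx2 and the reductase FAR5 at 1.07 in WT and 0.358 in tcx2, both past 1.5-fold. ABCG6, CYP86B1, CYP86A8 and FAR5 reached an FPKM of 1 only in WT, so their direction was set by the filter. The feruloyl transferase ASFT (listed as RWP1) was at 66.1 in WT and 51.9 in tcx2. Restricted to the 3 genes with an FPKM of at least 5, the median was -0.086. The acyltransferase GPAT5, a marker of suberized cells, was at 0.452 in WT and listed at 0 in tcx2, under the filter in both.

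Most photosynthesis genes were lower in tcx2. Of 33 nuclear genes for the photosystems, light harvesting and Rubisco, 30 were lower, 5 at least 1.5-fold (1.83% of all genes) and none called, with a median difference of -0.31. The summed FPKM was 617 in WT and 497 in tcx2, and 25 of the 33 had an FPKM of at least 5. The Rubisco small subunit RBCS1A was at 3.45 FPKM (2.04 to 4.95) in WT and 1.54 (0.727 to 2.47) in tcx2, the light harvesting gene CAB3 at 1.84 in WT and 0.665 in tcx2 and the oxygen-evolving subunit PSBO1 at 27.7 in WT and 17.4 in tcx2. CAB genes are near-identical copies, and how their reads were shared is not known. Of the 4 green tissue markers, 3 passed the filter, and all 3 were lower (summed FPKM 6.41 in WT and 2.95 in tcx2). CAB3 and LHCB2.1 among them reached an FPKM of 1 only in WT, so their direction was set by the filter. The marker under the filter, CAB2, was at 0.239 in WT and 0.230 in tcx2.

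Flavonoid genes, which make pigments and auxin-active flavonols from phenylpropanoids, were lower in 9 of 10 compared, with a median of -0.35, no called gene and none past 1.5-fold. Chalcone synthase (TT4) was at 1112 in WT and 878 in tcx2, F3H at 242 in WT and 177 in tcx2 and the flavonol synthase FLS1 at 233 in WT and 181 in tcx2, while their activator MYB12 was at 10.3 in WT and 12.5 in tcx2. Glutathione transferases, which join glutathione to reactive compounds, were lower in 30 of 38 with a median of -0.18. Of these, 4 were at least 1.5-fold lower, against 1.83% of all genes. GSTL1 was at 2.76 in WT and 0.946 in tcx2, GSTU9 at 10.5 in WT and 5.34 in tcx2 and GSTF6 at 9.45 in WT and 5.65 in tcx2. GSTF6 and GSTF7 are close copies whose counts are uncertain.

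Genes of cell division and growth are known targets of DREAM in other species, and their differences here were small. Of 29 A-, B- and D-type cyclins and their kinases, 23 were lower with a median of -0.080, none was called and none passed 1.5-fold. The kinase CDKA;1 (listed as CDC2) was at 36.99 in WT and 37.2 in tcx2, CYCD2;1 at 18.6 in WT and 19.1 in tcx2 and CYCA3;2 at 14.5 in WT and 13.6 in tcx2. Of 35 DNA replication genes, 26 were lower (median -0.067), with PCNA1 at 26.7 in WT and 26.4 in tcx2 and the ribonucleotide reductase subunit TSO2 at 39.2 in WT and 35.4 in tcx2. Mitosis and cytokinesis genes gave a median of -0.031 over 28 genes (20 lower), and 43 histones gave -0.0079 (24 lower). After quantile normalization 18 of the 29 cyclins and kinases and 19 of the 35 replication genes were lower, and the median of the mitosis genes was 0.012.

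Partners of TCX2 in the DREAM complex also stayed close to WT. Of 14 genes, 10 were lower, with a median of -0.070 and overlapping intervals. RBR1, the plant retinoblastoma protein, was at 7.69 in WT and 6.96 in tcx2, the LIN9 relatives ALY1, ALY2 and ALY3 were at 2.84 in WT and 2.53 in tcx2, at 3.11 in WT and 2.804 in tcx2 and at 7.62 in WT and 7.81 in tcx2, and MYB3R1 (listed as PC-MYB1) was at 8.799 in WT and 10.3 in tcx2. Among other CXC-domain genes, TSO1 was at 13.5 in WT and 14.6 in tcx2, and SOL1 was under the filter at 0.478 in WT and 0.417 in tcx2. Of the 8 listed, 5 passed the filter, and TCX2 was the only called member.

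Ribosome genes were lower by small amounts in most members. Of 274 cytosolic ribosomal protein genes, 220 were lower, with a median of -0.090 and a summed FPKM of 57322 in WT and 54074 in tcx2. 42 of 52 nucleolar and ribosome biogenesis genes were lower (median -0.13), among them nucleolin NUC-L1 (215 in WT and 196 in tcx2) and fibrillarin FIB2 (172 in WT and 152 in tcx2). Of 42 proteasome genes, 34 were lower (median -0.058). No gene of these 3 lists was called. With equal FPKM sums the median over all genes was -0.045 and these 3 medians were -0.14, -0.18 and -0.11.

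**Figure D5:**
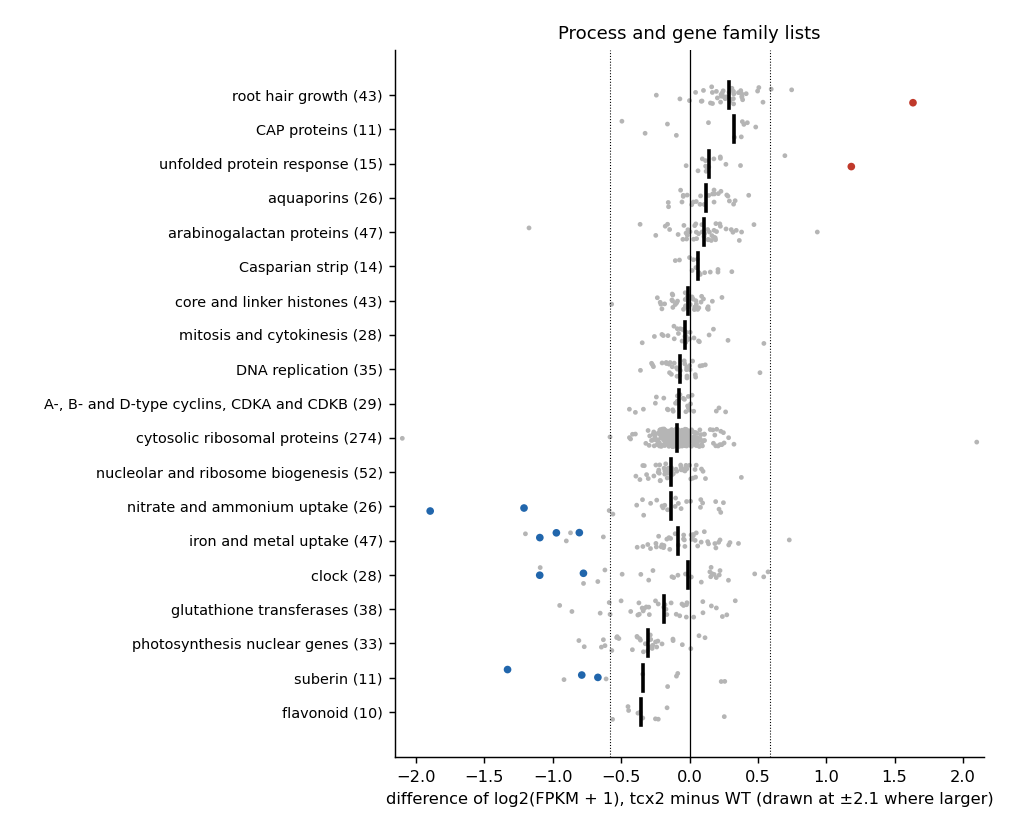
Difference of log2(FPKM + 1), tcx2 minus WT, for the members (points) of 19 process and gene family lists, with the median of each list (black bar) and the number of genes compared in brackets. Coloured points are called genes (blue lower, red higher), dotted lines mark 1.5-fold, and values beyond 2.1 are drawn at 2.1. The root hair list is shifted to higher values as a whole, while the iron, nitrogen and suberin lists hold single genes far to the left.

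Across all lists, small shifts were the rule. Of 96 lists of processes and gene families (10 lists added once these values had been seen are left out), 81 had a median within 0.1 of 0, 6 were above 0.1 and 9 below -0.1. Called genes were found in 21 of these 96 lists. Against 0.321% of all genes, 4 of 127 cytochrome P450 genes were called lower, 4 of 143 extensin and proline-rich genes, 2 of 19 defensin-like genes and 1 of 77 ABC transporters. Among these, CYP82C4, CYP86B1, CYP86A8, AT2G22510, AT1G26250, AT5G33355 and ABCG6 reached an FPKM of 1 only in WT. The direction of these genes was set by the filter. Of 48 genes listed as peroxidases by their annotation 2 were called lower, and 1 of these is DOX1, which is not a class III peroxidase. Families of regulators had medians of -0.016 for 48 WRKY, -0.0073 for 39 NAC, -0.0039 for 73 MYB and -0.036 for 80 bHLH factors, and none of these 4 lists had a called member. The MYB list was drawn from product names and does not hold CCA1 and LHY, which were called. After quantile normalization the WRKY, MYB and bHLH medians lay just above 0.

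Marker genes of cell types were compared in the same way. Differentiated endodermis markers (CASP1 to CASP5, MYB36, ESB1, PER64) were at or above WT in 8 of 8 (summed FPKM 2247 in WT and 2411 in tcx2), and both cortex markers compared were higher. The remaining cortex marker, CO2 (AT1G62500), was under the filter and lower, at 0.913 in WT and 0.625 in tcx2. Root cap markers were split, 3 higher and 2 lower (218 and 232). The 4 markers of the pericycle and of xylem loading were all lower (48.2 and 31.6). NRT1.5 is 1 of the 4, and the other 3 had overlapping intervals: the potassium channel SKOR was at 5.89 in WT and 3.99 in tcx2, the phosphate exporter PHO1 at 20.4 in WT and 16.1 in tcx2 and the boron exporter BOR1 at 12.1 in WT and 9.57 in tcx2. Whether these 3 and NRT1.5 share a source was not tested. Differentiated xylem markers were lower in 6 of 8 (78.3 and 76.2), while the longer list of xylem and secondary wall genes was higher in 16 of 30 (423 and 441), with a median of 0.023 that was -0.025 with equal FPKM sums. Both suberized endodermis markers that passed the filter were lower (67.5 and 52.3), as were both phloem markers that passed it (3.55 and 3.08). The suberized marker CYP86B1 reached an FPKM of 1 only in WT, so its direction was set by the filter.

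The stem cell niche was near the limit of the table. WOX5, which marks the quiescent center, was under the filter at 0.612 in WT and 0.0827 in tcx2, and PLT1 at 0.927 in WT and 0.666 in tcx2. Of 14 niche and ground tissue genes that passed, 8 were lower and 6 higher with a median of -0.050 and no called gene. SCR, which specifies endodermis, was at 24.1 in WT and 22.4 in tcx2, and SHR, its activator from the stele, at 9.35 in WT and 9.51 in tcx2. A whole root tip averages these few cells with many others, and a difference confined to them was not detectable here.

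Called genes lay on all chromosomes, with 13, 11, 7, 13 and 12 lower and 1, 2, 1, 1 and 2 higher on chromosomes 1 to 5. Of 318 compared genes within 1 Mb of TCX2, 2 were called lower (HCD1 and RLP50) and none higher. This was 0.629%, where 0.361% of all genes were called in either direction. A few differences lay side by side. FRO2 and GPAT4, both lower, are 8649 bases apart, and PELPK1 and PELPK2 877 bases apart. MLP328 lies 2557 bases from MLP329, which was at 111 in WT and 64.3 in tcx2, with related sequence. Pairs were searched within 10000 bases where 1 gene was called and the other was called or past 1.5-fold at an FPKM of at least 3. Among these, IRT1 and IRT2 and the pair AT5G35935 and AT5G35940, at 933 bases, differed in opposite directions.

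Promoters were searched from 250 bases before to 50 after the gene start for motifs of the DREAM complex. A CHR element (TTTGAA or TTCGAA, either strand) was present in 48.9% of the 17096 promoters of compared genes that could be read, in 37 of the 56 called lower genes (66.1%) and in 6 of the 7 called higher genes (85.7%). Among the larger sets past 1.5-fold the share was 53.4% for lower and 51.9% for higher genes. The element is rich in A and T. Among all genes whose promoter held no more G and C than the median called lower gene, the share was 53.1%. That set had a median G and C content of 27%, against 30.2% for the called lower genes, so it is not matched to them. The E2F core (TTCCCGC or TTGGCGC) was in 2.49% of all promoters and in 1.02% of the set poor in G and C. It was in 3 of the 56 (5.36%) and in 2.56% of the genes past 1.5-fold lower. The MSA core (AACGG) was in 26.3% of all promoters and in 16.2% of the set poor in G and C. It was in 11 of the 56 (19.6%) and in 23% of the genes past 1.5-fold lower. The called lower genes lay under the share of all promoters and over that of the unmatched set. Of the 7 called higher genes, 4 held an MSA core (57.1%) and none an E2F core. CCA1, LHY, GPAT4 and PELPK2 were called lower without a CHR element in this window. A match gives only the presence of these letters.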

How the data were processed

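RNA of WT and tcx2 root tips was sequenced in 6 libraries, 3 per genotype, made with a directional kit. Per the submitters' processing notes, reads were handled with Bowtie and Cufflinks on TAIR10, and versions and strand settings are not given in the sources used here. The authors deposited 1 pooled FPKM per gene and genotype with the bounds of an interval whose confidence level is not stated. Fold change, p-value and call columns of the authors' own comparison were not used, and the table of sorted cells was not analysed here.

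Differences were computed as log2(FPKM + 1) in tcx2 minus WT from the deposited FPKM, which understates changes of low genes. A gene was kept if its FPKM reached 1 in either genotype, called where the 2 intervals did not overlap, and counted as past 1.5-fold on the log2 scale. The study's design has 3 libraries per genotype, and a limma fit was planned for a table of single libraries. The table held pooled values only, so no test, replicate error or error rate exists. Depth is unknown. The counting scripts were tested on simulated data.

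Symbols, products and promoters came from RefSeq TAIR10.1, and 88 of the compared rows had no annotation there. 333 rows carry several merged gene names, 437 compared genes have an FPKM outside its own interval, and 41 listed symbols were not matched. Named genes were TCX2, all genes called higher, up to 25 of those called lower, and up to 5 called or past 1.5-fold members per list (3 of the highest mean FPKM where there were none). Other named genes were chosen after their values were seen. The members, lists and rules were chosen with earlier results of these data known. Python 3.11.15, pandas 2.3.3, numpy 2.4.6 and matplotlib 3.10.9 were used.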

Additional observations from a re-analysis of the deposited data

How the results depend on the processing

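No paired analysis was possible because the 3 libraries of a genotype were pooled into 1 value, and for the same reason no library could be left out. The calls were stable to scaling: all 63 were kept without a filter, with 1 gene name per row and with either scaling of the intervals (the latter chosen after seeing the data), 59 were kept where the FPKM lay inside its interval, 43 with a gap of at least 1.2-fold and 39 at an FPKM of at least 5, where 33 were lower. Between 84.6% and 90.1% of the calls were lower. The counts past 1.5-fold depended on how low genes were treated. At an FPKM of at least 5 there were 132 lower and 54 higher, with a pseudocount of 0.1 there were 584 and 264, and with a pseudocount of 5 there were 76 and 43. A 2-fold threshold gave 96 and 48. The lower share of these genes was 69.8%, and 62.6% after quantile normalization. The TCX2 difference was -1.78 with a pseudocount of 0.1. Equal FPKM sums raised the number of lists with a median over 0.1 in size from 20 to 34, since the factor on tcx2 was 0.965 and the median over all genes -0.045. At an FPKM of at least 5, the medians of the RGF peptides (0.22, from -0.29) and of the miRNA precursors (-0.032, from 0.13) changed sign, with 1 and 8 genes left. No other list with a median over 0.1 in size changed sign. Medians closer to 0 did so in 26 lists with equal FPKM sums, in 16 after quantile normalization and in 16 at an FPKM of at least 5. Low genes limit what can be called, since wide intervals separate only at large differences.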

Other observations

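Several gene groups outside the comparisons above held differences worth listing, all named after their values were seen. Cold and dehydration genes were lower in 7 of 11 compared, with a median difference of -0.20. Of these, 2 were at least 1.5-fold lower, against 1.83% of all genes. KIN1 was at 16.4 FPKM (8.51 to 18.5) in WT and 6.88 (2.84 to 8.72) in tcx2 and KIN2, its neighbour of related sequence, at 381 FPKM (199.8 to 372) in WT and 226 (117 to 220.0) in tcx2, so that reads may be shared between them. LTI78 (RD29A), a classical cold and drought gene, was at 37.9 in WT and 25.9 in tcx2, whereas the transcription factor DREB2A, an activator of such genes, was at 13.4 in WT and 14.2 in tcx2. Of the phloem genes, 9 of 10 compared were lower, with a median of -0.14. A further 18 of the 28 listed were under the filter, and none reached an FPKM of 5. After quantile normalization 7 of the 10 were lower, with a median of -0.082. SWEET11, a sugar exporter of phloem loading, was at 3.43 FPKM (1.83 to 4.94) in WT and 1.28 (0.548 to 1.92) in tcx2 and SWEET12 at 2.85 in WT and 1.697 in tcx2. Of 6 metallothioneins, small metal-binding proteins, 4 were lower. MT1C was at 394 in WT and 306 in tcx2 and MT1B at 8.15 in WT and 4.69 in tcx2.

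Jacalin lectins held 4 members past 1.5-fold, all lower, out of 22 compared, while the median of the family was 0.014 (-0.025 with equal FPKM sums) and its summed FPKM was 4794 in WT and 4996 in tcx2. Major latex and Bet v 1-like genes held 6 members past 1.5-fold lower and 1 higher out of 28 (median -0.033). CASP-like UPF0497 proteins held 4 lower and 1 higher out of 32, with a median of 0.11. Over all genes 1.83% were at least 1.5-fold lower and 0.79% higher.

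Some of the largest differences came from genes listed at 0 in 1 genotype. Of the genes past 1.5-fold, 33 were listed at 0 in tcx2 and 26 in WT. For the ribosomal protein gene family RPL41, of near-identical short genes, AT3G08520 was at 14.6 in WT and listed at 0 in tcx2, while AT2G40205 was listed at 0 in WT and at 23.8 in tcx2. The summed FPKM of the 5 members was 520.4 in WT and 515 in tcx2. Their FPKM values lay outside their own intervals.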
